A study of Mus musculus with 21 samples.

Results

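Cytochrome P450 families 1 to 4 are here the 80 genes, of 46517 in the count table, whose mouse symbol starts with Cyp followed by a family number from 1 to 4, a subfamily letter and a gene number. Family 1 has 3 of them, family 2 has 48, family 3 has 9 and family 4 has 20, and all 80 are annotated as protein coding. By textbook knowledge 46 are chiefly enzymes of the liver (called hepatic below), 15 belong to a list of vascular and cardiac P450s, and 19 are on neither list. The measurements are bulk RNA sequencing of heart tissue from 4 control (Notch3+/+) and 3 Notch3-/- C57BL/6J mice aged 10 to 14 months. There were 3 technical libraries from each mouse and 21 libraries in all. In the Notch3-/- line the Notch3 locus is disrupted by a lacZ insertion in every cell, so the loss is not limited to vessels, and the sex of the mice is not labelled. Notch3 is a receptor of vascular smooth muscle cells and pericytes, and the comparison asks how the heart's transcriptome differs in its absence.

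P450 enzymes are haem proteins, most of them anchored in the endoplasmic reticulum, that use electrons from a reductase to insert oxygen into lipids, steroids, drugs and toxins. Most members of families 1 to 4 that handle drugs and steroids are made in hepatocytes, where many are arranged along the axis from the portal to the central vein and several differ between the sexes. Blood vessels and heart muscle make a smaller set, some of which turn arachidonic acid into epoxides or hydroxylated products that act on vessel tone.

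Notch3 itself had 174, 200, 245 and 185 counts in the controls (mice 1 to 4) against 22, 36 and 25 in Notch3-/- mice 1 to 3. Every Notch3-/- mouse lay below every control mouse, so the counts follow the genotype labels. The levels were 54.7 ± 8.62 (SD, n = 4) and 6.10 ± 1.42 (SD, n = 3) CPM, counts scaled to the library total after TMM normalisation. On the log2 scale the change was -3.16 (SE 0.23, Benjamini-Hochberg adjusted p of 0.00173 in edgeR's quasi-likelihood test). The labels of control mice 1 and 2 begin with X and those of the remaining 5 mice with k, and the k-labelled mice by themselves gave -3.29 (Benjamini-Hochberg adjusted p of 0.206 in edgeR). Over all settings tried the change ran from -3.52, in Notch3-/- mouse 3 alone against the control mice, to -2.93, without technical library 3 of that mouse, and 0.206 was the highest adjusted p.

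Across the whole family, 71 of the 80 members had at least 1 count in some mouse. The other 9, Cyp2c65, Cyp2c66, Cyp2j7, Cyp2j12, Cyp2w1, Cyp3a57, Cyp4a29, Cyp4f37 and Cyp4f40, had 0 counts in all 7 mice. The number of members with at least 10 counts was 14, 15, 12 and 12 in the controls (mice 1 to 4) against 51, 48 and 18 in Notch3-/- mice 1 to 3. Notch3-/- mice 1 and 2 thus stood apart from the other 5 mice, and Notch3-/- mouse 3 was close to the control mice. The mouse totals behind these numbers were 3091461, 4638786, 4208205 and 3046326 counts in the controls against 3828763, 5167869 and 5086740 in the Notch3-/- mice, and do not divide the mice in the same way. Single libraries held 464390 to 2134368 counts from control mice and 979804 to 2427783 from Notch3-/- mice.

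Summed over the 46 hepatic members, the level was 23.4, 44.5, 23.8 and 12.02 CPM in the controls (mice 1 to 4) against 2153, 5094 and 67.7 CPM in Notch3-/- mice 1 to 3. The Notch3-/- mean was 94.1 times the control mean, and 2.61 times when Notch3-/- mouse 3 was compared alone with the control mice. Cyp2b10 held 66.2% of the hepatic counts of that mouse, and the 45 hepatic members without it summed to 22.9 CPM there, 1.48 times the control mean and within the control range of 6.12 to 29.1 CPM. For the 15 members of the vascular and cardiac list the sums were 322, 251, 243 and 292 CPM in the controls against 337, 752 and 276 CPM in Notch3-/- mice. That ratio of means was 1.64, and Notch3-/- mouse 3 lay within the control range. The 19 members on neither list summed to 1.32, 1.05, 0.706 and 1.67 CPM in the controls against 3.83, 14.1 and 1.70 CPM in Notch3-/- mice.

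**Figure D1:**
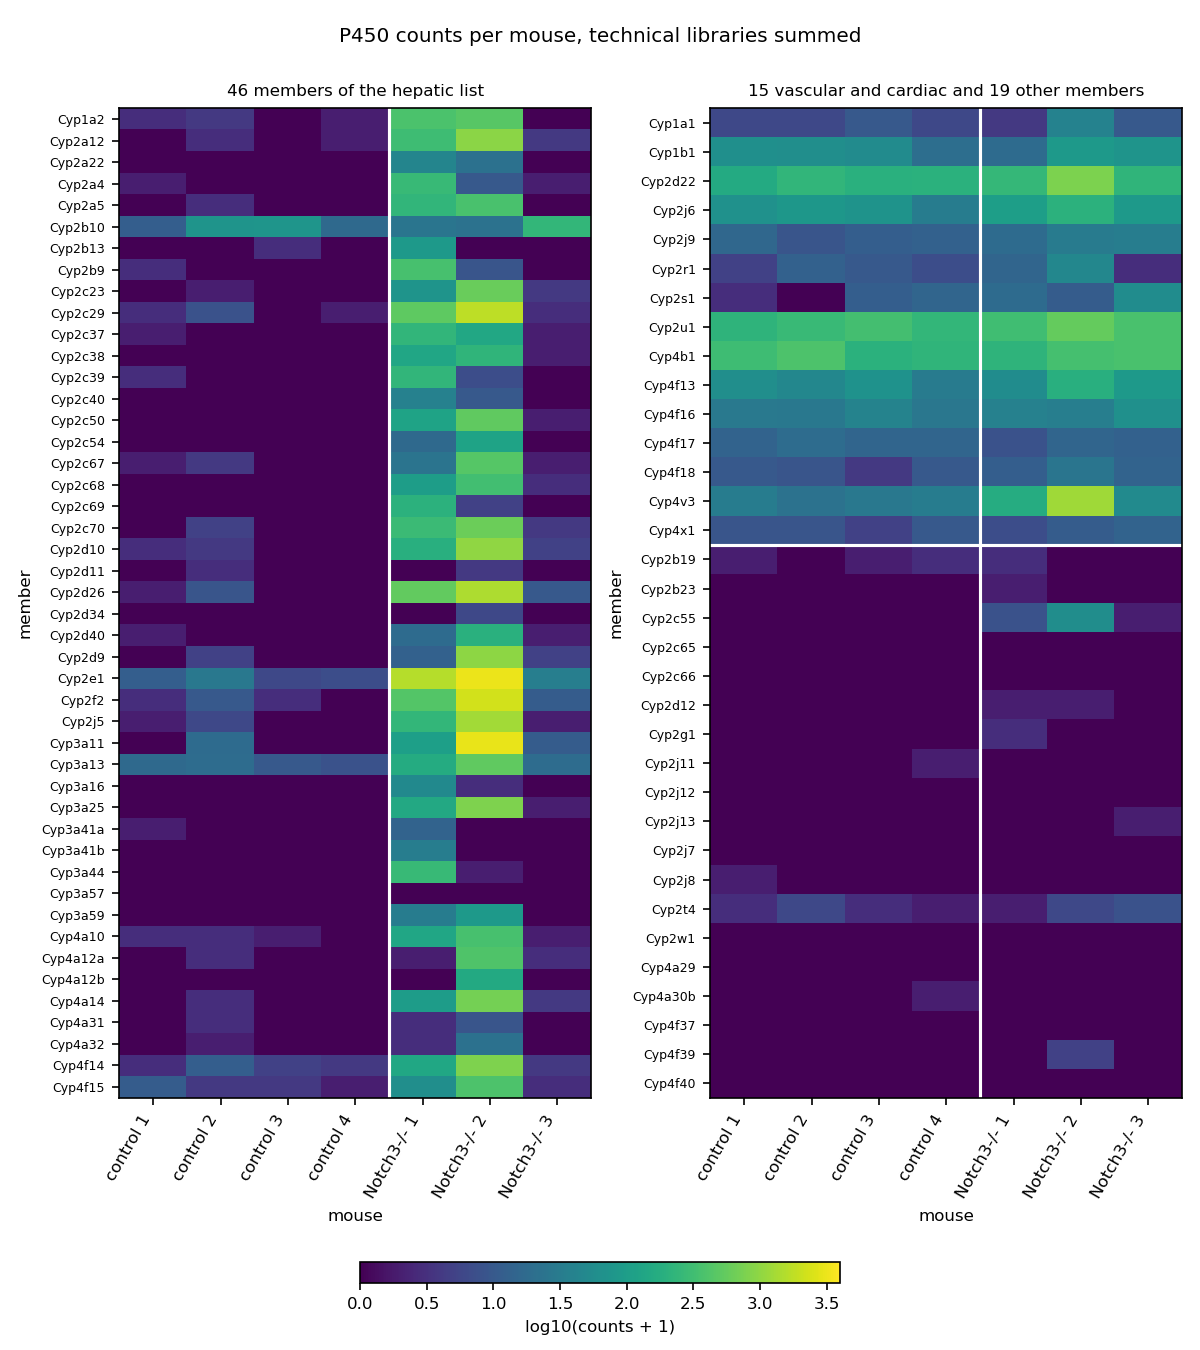
Counts of the 80 members in the 7 mice as log10(counts + 1), with hepatic members on the left and vascular, cardiac and other members on the right; the vertical white line divides control from Notch3-/- mice. Hepatic members reach up to 3164 counts (Cyp2e1) in Notch3-/- mouse 2, while most are at or near 0 in the control mice and in Notch3-/- mouse 3.

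The heat map of counts shows the hepatic block as bright columns in Notch3-/- mice 1 and 2, with Cyp2b10 the exception that is brightest in Notch3-/- mouse 3. Markers of hepatocytes followed the same mice. The 20 genes of a hepatocyte list, secreted proteins and enzymes such as Alb and Cps1, summed to 55.0, 173, 18.8 and 31.7 CPM in the controls against 6837, 12678 and 166 CPM in Notch3-/- mice. All 20 exceeded each control in Notch3-/- mice 1 and 2, as did 9 in mouse 3. Alb, which encodes albumin, had the highest mean CPM over the 7 mice, with 68, 385, 10 and 32 counts in the controls against 6240, 8913 and 354 in Notch3-/- mice. In the control mice 3, 16, 3 and 3 of the 20 had at least 10 counts, and no gene of the list was at 0 in all mice. All 17 of them tested had an unadjusted p lower than 0.05 and were higher, beside 7.34% of all genes tested, but just 3 of the 17 had at least 10 counts in 3 or more control mice, so for the others the direction is not independent of the filter. EdgeR with Benjamini-Hochberg adjustment called 0, and DESeq2 called 20, beside 3.53% of all genes. In bulk tissue, fewer or more cells of a type cannot be told apart from less or more RNA per cell, and the part of the hepatocyte markers in the P450 values was not tested.

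The promoters of 65 of the 80 members were found in the RefSeq table for GRCm38.p6, each 300 bases long, from 250 bases before the annotated start to 50 after it. A window each is shown for 4 hepatic members and 2 members counted in control hearts, because these groups of members differ in the motifs they hold; the choice was made after the values were seen. Capitals mark the TATA box letters TATAAA in Cyp2e1 (chr7:140763569-140763868, plus strand), their reverse complement TTTATA in Cyp2d9 (chr15:82452127-82452426, plus strand), and the letters CAAAGTCCA, a spelling of the site of the liver factor HNF4A, in Cyp3a11 (chr5:145879805-145880104, minus strand) and Cyp2c69 (chr19:39886720-39887019, minus strand). They mark the GC box letters GGGCGG or their reverse complement CCGCCC in Cyp4b1 (chr4:115647672-115647971, minus strand) and Cyp1b1 (chr17:79715012-79715311, minus strand).
Cyp2e1: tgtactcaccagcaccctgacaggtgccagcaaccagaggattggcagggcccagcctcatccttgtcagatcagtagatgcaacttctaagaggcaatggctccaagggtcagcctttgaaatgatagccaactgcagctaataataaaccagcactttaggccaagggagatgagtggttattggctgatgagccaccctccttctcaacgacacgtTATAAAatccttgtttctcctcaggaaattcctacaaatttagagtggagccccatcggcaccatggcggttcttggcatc
Cyp3a11: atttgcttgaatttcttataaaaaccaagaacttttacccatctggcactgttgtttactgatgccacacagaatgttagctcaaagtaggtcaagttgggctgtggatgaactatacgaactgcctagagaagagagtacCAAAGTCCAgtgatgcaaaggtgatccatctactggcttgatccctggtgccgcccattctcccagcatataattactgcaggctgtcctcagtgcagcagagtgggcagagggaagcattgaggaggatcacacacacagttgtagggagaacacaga
Cyp2c69: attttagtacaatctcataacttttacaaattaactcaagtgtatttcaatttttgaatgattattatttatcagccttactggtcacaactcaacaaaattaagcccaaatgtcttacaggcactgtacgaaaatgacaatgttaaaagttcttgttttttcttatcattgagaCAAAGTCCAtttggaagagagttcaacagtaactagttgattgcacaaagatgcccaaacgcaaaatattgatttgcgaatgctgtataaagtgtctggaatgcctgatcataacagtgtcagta
Cyp2d9: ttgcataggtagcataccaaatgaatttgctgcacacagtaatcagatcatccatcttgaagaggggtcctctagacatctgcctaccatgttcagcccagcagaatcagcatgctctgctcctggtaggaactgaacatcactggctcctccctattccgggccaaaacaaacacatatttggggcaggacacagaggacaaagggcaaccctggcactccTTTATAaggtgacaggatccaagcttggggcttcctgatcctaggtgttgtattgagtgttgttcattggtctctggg
Cyp4b1: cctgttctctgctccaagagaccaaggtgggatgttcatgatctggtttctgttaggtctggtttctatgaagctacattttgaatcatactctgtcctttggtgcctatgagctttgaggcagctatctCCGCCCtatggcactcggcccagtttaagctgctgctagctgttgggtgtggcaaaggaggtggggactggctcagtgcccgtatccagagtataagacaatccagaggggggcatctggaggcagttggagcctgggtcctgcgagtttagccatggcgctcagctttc
Cyp1b1: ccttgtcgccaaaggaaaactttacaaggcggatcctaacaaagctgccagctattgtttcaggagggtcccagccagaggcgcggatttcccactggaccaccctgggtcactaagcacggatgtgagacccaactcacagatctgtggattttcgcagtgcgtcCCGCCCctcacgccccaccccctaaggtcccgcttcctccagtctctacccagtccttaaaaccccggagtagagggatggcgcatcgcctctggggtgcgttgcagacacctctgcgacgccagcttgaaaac
The capitals start at base -31 from the annotated start in Cyp2e1, -109 in Cyp3a11, -75 in Cyp2c69, -28 in Cyp2d9, -120 in Cyp4b1 and -84 in Cyp1b1.

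Over all windows, 14 motifs were searched on both strands, after the members' values were known. TATAAA lay in 25 of the 38 hepatic members with a window, in 1 of the 11 vascular and cardiac members (Cyp1a1) and in 13.62% of the 32851 windows of all genes. CAAAGTCCA lay in 9 hepatic members, which are Cyp2c40, Cyp2c67, Cyp2c68, Cyp2c69, Cyp2c70, Cyp3a11, Cyp3a16, Cyp3a41a and Cyp3a41b, in 0 vascular and cardiac members and in 0.47% of all windows. The GC box GGGCGG showed the other arrangement, with 2 hepatic members (Cyp3a11 and Cyp4f15), 8 vascular and cardiac members and 35.66% of all windows. GTTAAT, part of the HNF1 site, lay in 8 hepatic and 0 vascular and cardiac members and in 7.10% of windows. TTGCNNAA, the core of a site of the C/EBP factors, lay in 11 hepatic members, 1 vascular and cardiac member (Cyp2j9) and 10.8% of windows, and its stricter form TTGCGCAA, which is contained in it, in 0, 0 and 0.18%.

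GCGTG, the core of the site of the aryl hydrocarbon receptor, leaned to the vascular and cardiac list as the GC box did, in 3 of the 38 hepatic and 6 of the 11 vascular and cardiac members, Cyp1a1 and Cyp1b1 among them, and in 32.39% of windows. CCAAT lay in 17 and 6 members and 37.41% of windows. TTCNNNGAA, the site of STAT factors, lay in 0 and 2 members (Cyp4b1 and Cyp4f13) and 8.30% of windows, and CAAAGTTCA, another spelling of the HNF4A site, in 0 and 0 members and 0.39% of windows. Both spellings of the HNF1 palindrome lay in 0 members and in 0.06% and 0.14% of windows. A direct repeat of the nuclear receptor core site lay in 0 members and 0.04% of windows in the first spelling, and in Cyp2d9, Cyp2d10 and Cyp2d40 and 0.38% of windows in the other. Neighbouring genes of a subfamily have similar promoters, so members are not independent of each other here, and a match describes letters, not binding.

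In control hearts 10 members had at least 10 counts in each of the 4 mice. Of these, 9 are on the vascular and cardiac list and Cyp2b10 is on the hepatic list. Just inside this limit were Cyp2b10, with a lowest control count of 11, and Cyp4f17, with 13, and just outside were Cyp2j9, with 8, and Cyp3a13, with 7. Per kilobase of exon, Cyp4b1 had the highest control level, 33.8 ± 10.0 CPM per kilobase (SD, n = 4), followed by Cyp2u1 with 13.7 ± 1.85 and Cyp2d22 with 13.6 ± 2.33. Below them came Cyp2b10 with 4.97 ± 3.33, Cyp2j6 with 4.51 ± 1.22, Cyp4f13 with 3.09 ± 1.06 and Cyp4f16 with 2.69 ± 0.565 CPM per kilobase. Cyp1b1 with 2.22 ± 0.987, Cyp4v3 with 2.09 ± 0.775 and Cyp4f17 with 1.25 ± 0.187 CPM per kilobase were the lowest. The control ranges of neighbours in this order did not overlap between Cyp4b1 and Cyp2u1 and between Cyp2d22 and Cyp2b10, and all other neighbours overlapped.

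**Figure D2:**
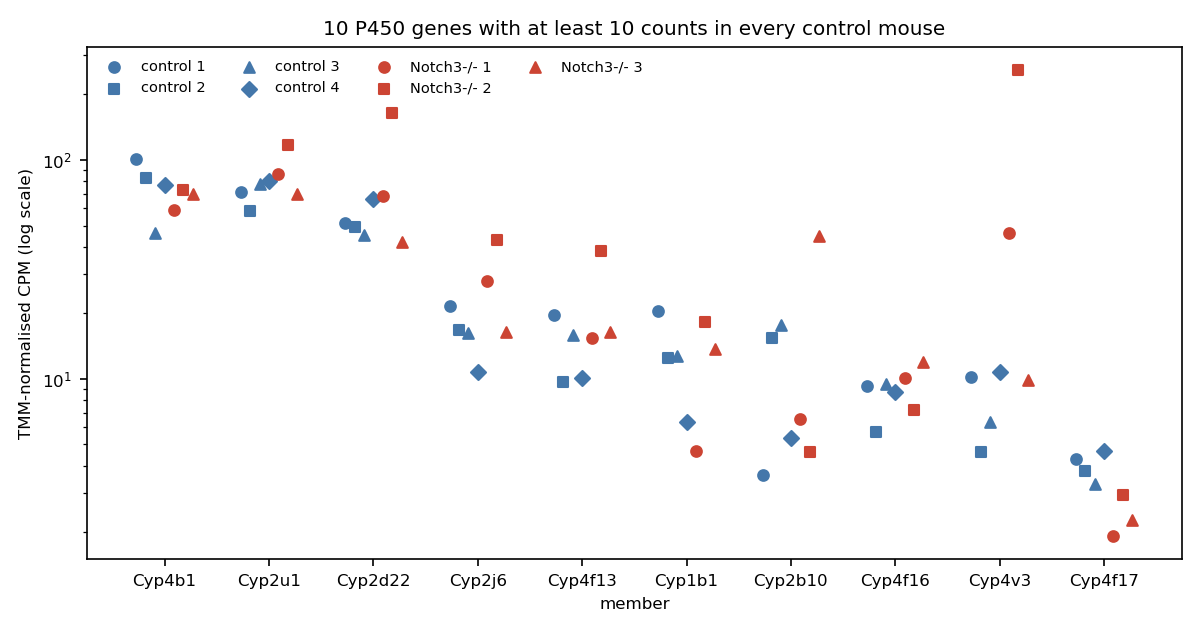
TMM-normalised CPM, on a log scale, of the 10 members with at least 10 counts in every control mouse, with 1 point per mouse, control mice in blue and Notch3-/- mice in red. For Cyp4v3 the Notch3-/- mice 1 and 2 lie at 46.2 and 256 CPM against 4.64 to 10.7 CPM in the control mice, while for Cyp4b1 the groups overlap.

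The plot of heart-counted members shows overlapping groups except for Cyp4f17. In Cyp2d22, Cyp2j6, Cyp2u1 and Cyp4v3 the red points of Notch3-/- mice 1 and 2 lie above every blue one. For Cyp4f16 those of mice 1 and 3 do. Mouse by mouse, 5, 5 and 2 of the 10 genes exceeded all 4 controls in Notch3-/- mice 1, 2 and 3. Among all genes with at least 10 counts in every control mouse, 23%, 28% and 20% did. Cyp4b1, which hydroxylates fatty acids and activates plant and lung toxins, had 305, 390, 196 and 229 counts in the controls (mice 1 to 4) against 216, 345 and 370 in Notch3-/- mice 1 to 3. The groups overlapped, and the log2 change was -0.18 (SE 0.23, Benjamini-Hochberg adjusted p of 0.840 in edgeR). It was 0.13 in the mice labelled k alone. Cyp2u1, a hydroxylase of long-chain fatty acids including arachidonic acid, had 216, 276, 329 and 239 counts in the controls against 314, 556 and 370 in Notch3-/- mice. In CPM it lay above all 4 controls in Notch3-/- mice 1 and 2 but not in mouse 3, with a log2 change of 0.34 (SE 0.19, Benjamini-Hochberg adjusted p of 0.571 in edgeR). An antisense gene, 4930534D22Rik, covers 10.5% of its exon bases, and since the use of strand in counting is not given in the sources used here, its counts are uncertain to that extent.

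Cyp2d22, the mouse gene often set beside human CYP2D6, had 156, 235, 192 and 198 counts in the controls against 249, 774 and 223 in Notch3-/- mice. Notch3-/- mouse 2 stood out, mouse 1 lay just above the control range in CPM and mouse 3 lay below it. Its log2 change was 0.78 (SE 0.38, Benjamini-Hochberg adjusted p of 0.504 in edgeR), and -0.32 when only Notch3-/- mouse 3 was compared with the control mice. Cyp2j6, from the subfamily of arachidonic acid epoxygenases, had 65, 79, 69 and 32 counts in the controls against 102, 205 and 86 in Notch3-/- mice. Again Notch3-/- mice 1 and 2 lay above every control mouse in CPM and mouse 3 did not. Of the 10 heart-counted members, 2 had an unadjusted edgeR p lower than 0.05, both higher, beside 7.34% of all genes tested. Cyp2j6 is 1 of these 2, with a log2 change of 0.84 (SE 0.34, Benjamini-Hochberg adjusted p of 0.430 in edgeR).

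Cyp4v3, the mouse counterpart of human CYP4V2 and a hydroxylase of medium-chain fatty acids, is the other of the 2. Its counts were 31, 22, 27 and 32 in the controls against 169, 1219 and 52 in Notch3-/- mice. Notch3-/- mice 1 and 2 stood above all control mice, at 46.2 and 256 CPM, while mouse 3, at 9.83 CPM, lay within the control range of 4.64 to 10.7 CPM. On the log2 scale the change was 3.74 (SE 0.88, Benjamini-Hochberg adjusted p of 0.165 in edgeR), and the FDR ranged from 0.00100 (without Notch3-/- mouse 3) to 0.734 (k-labelled mice) over all fits with more than 1 mouse per group, each with Benjamini-Hochberg adjustment within edgeR, limma or DESeq2. It is the 1 heart-counted member that DESeq2 called, and 8.22% of its exon bases overlap Gm45753 on the same strand. The hepatocyte markers were high in the same 2 mice, and their part in the Cyp4v3 values was not tested.

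Among the family 4F genes, which hydroxylate leukotrienes and other fatty acids, Cyp4f13 had 59, 46, 67 and 30 counts in the controls against 56, 183 and 86 in Notch3-/- mice. Only Notch3-/- mouse 2 stood above the control range for this gene, and the log2 change was 0.77 (SE 0.38, Benjamini-Hochberg adjusted p of 0.512 in edgeR). Cyp4f16 had 28, 27, 40 and 26 against 37, 34 and 63 counts, and Cyp4f17 had 13, 18, 14 and 14 against 7, 14 and 12. For Cyp4f17 every Notch3-/- mouse lay below every control mouse in CPM, at 2.38 ± 0.524 (SD, n = 3) against 4.01 ± 0.599 (SD, n = 4). Its log2 fold change of -0.73 (SE 0.35, Benjamini-Hochberg adjusted p of 0.503 in edgeR) did not pass the test, and 567 of the 14324 genes tested (3.96%) had groups that do not overlap in this direction.

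Cyp1b1, an oestradiol hydroxylase of vessel walls and fibroblasts that the aryl hydrocarbon receptor can induce, had 62, 59, 54 and 19 counts in the controls against 17, 86 and 72 in Notch3-/- mice. The groups overlapped, with control mouse 4 and Notch3-/- mouse 1 the lowest, and the log2 fold change of -0.08 (SE 0.47, Benjamini-Hochberg adjusted p of 0.971 in edgeR) changed sign under several settings. Cyp1a1, the classic target of the same receptor, stayed below the 10-count limit in control mice, with 5, 5, 9 and 5 counts against 3, 38 and 9. Cyp2b10, a drug-metabolising enzyme induced through the receptor Nr1i3, had 11, 73, 75 and 16 counts in the controls against 24, 22 and 237 in Notch3-/- mice. The highest count was in Notch3-/- mouse 3 and the control mice spread widely, so this hepatic-list gene did not follow the other hepatic members. Its log2 change was 0.81 (SE 0.77, Benjamini-Hochberg adjusted p of 0.760 in edgeR), and -0.96 without Notch3-/- mouse 3. The 237 counts came from all 3 libraries of that mouse, with 61, 50 and 126.

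The vascular and cardiac list has 6 members under the 10-count limit, Cyp1a1 among them. Cyp2s1, an enzyme of epithelia, had 2, 0, 11 and 14 counts in the controls against 17, 10 and 55 in Notch3-/- mice, with the highest count in Notch3-/- mouse 3. Cyp2r1, a vitamin D hydroxylase, had 4, 12, 9 and 6 against 14, 45 and 2, Cyp2j9 had 15, 8, 11 and 12 against 17, 30 and 33, Cyp4f18, a leukotriene hydroxylase of neutrophils, had 9, 8, 3 and 9 against 11, 24 and 13, and Cyp4x1 had 8, 8, 4 and 9 against 6, 10 and 13. In none of these 6 did the Notch3-/- mice all lie above the control mice. Cyp2r1 turned from a log2 change of 1.15 to -2.33 when Notch3-/- mouse 3 alone was compared with the control mice.

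The enzymes made around the central vein of the liver lobule are the best known hepatic members. Cyp2e1, which oxidises ethanol and paracetamol, lies on chromosome 7 from 140763739 to 140774987 (GENCODE vM21, GRCm38). It had 11, 27, 5 and 6 counts in the controls against 1561, 3164 and 34 in Notch3-/- mice, the most counts of any member. Every Notch3-/- mouse lay above every control mouse in CPM, but by little in mouse 3, where the level was 6.43 CPM against 5.69 CPM in control mouse 2. Technical library 3 held 26 of the 34 counts of that mouse, and the other libraries held 4 each. The place of Notch3-/- mouse 3 above every control mouse thus rests on that library. On the log2 scale the change was 6.82 (SE 1.21, Benjamini-Hochberg adjusted p of 0.118 in edgeR), and the FDR ranged from 8.4e-06 (without Notch3-/- mouse 3) to 0.734 (k-labelled mice) over all fits with more than 1 mouse per group, each with Benjamini-Hochberg adjustment within edgeR, limma or DESeq2. Cyp2e1 is 1 of 655 tested genes (4.57%) whose groups do not overlap with the Notch3-/- mice higher, and the 1 member among them.

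Cyp3a11, the main mouse counterpart of the human drug-metabolising CYP3A4, had 0, 17, 0 and 0 counts in the controls against 105, 3046 and 10 in Notch3-/- mice. Control mouse 2 held every control count of this gene, and at 3.58 CPM it lay above Notch3-/- mouse 3, at 1.89 CPM. On the log2 scale the change was 7.65 (SE 1.79, Benjamini-Hochberg adjusted p of 0.165 in edgeR). Cyp1a2, which metabolises caffeine, had 2, 3, 0 and 1 against 382, 464 and 0 counts. Cyp2c29 had 2, 7, 0 and 1 against 507, 1732 and 2. These 3 genes were high in Notch3-/- mice 1 and 2 and within the control range in Notch3-/- mouse 3.

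Further members of the pericentral list include Cyp4a10 and Cyp4a14, fatty acid hydroxylases switched on through PPARalpha. Cyp4a10 had 2, 2, 1 and 0 counts against 132, 361 and 1, and Cyp4a14 had 0, 2, 0 and 0 against 96, 705 and 3. With 2 control counts, the ratio of pooled rates for Cyp4a14 was 441 (95% counting interval 122 to 3647), and 83.1 (22.4 to 696) without Notch3-/- mouse 2. Cyp2c37 had 231, 145 and 1 counts in Notch3-/- mice against 1 in control mouse 1, Cyp2c50 had 122, 529 and 1 against 0 in all control mice, and Cyp2c54 had 16, 122 and 0 against 0. All 9 members of the pericentral list were above all 4 controls in Notch3-/- mice 1 and 2, and 3 were in Notch3-/- mouse 3. Their summed level was 5.93, 12.2, 1.41 and 2.67 CPM in the controls against 861, 2160 and 9.83 CPM in Notch3-/- mice.

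Cyp2f2, which activates naphthalene and is made around the portal vein and in club cells of the lung, had 2, 9, 2 and 0 counts in the controls against 427, 2267 and 10 in Notch3-/- mice. An antisense gene, Gm15883, covers 13.5% of its exon bases. Notch3-/- mice 1 and 2 were both far above the control mice, but not in the same proportion to Cyp2e1. Of the counts of Cyp2f2 and Cyp2e1 together, Cyp2f2 made up 21.5% in Notch3-/- mouse 1 (95% Clopper-Pearson interval 19.7 to 23.4) and 41.7% in mouse 2 (40.4 to 43.1). The 3 libraries gave 18.7%, 23.9% and 21.2% in mouse 1 and 42.7%, 41.4% and 41.0% in mouse 2. Against all 9 pericentral members the gap was smaller, with Cyp2f2 at 11.9% (10.9 to 13.0) in mouse 1, 18.1% (17.4 to 18.8) in mouse 2 and 16.1% (8.02 to 27.7) in mouse 3 of their counts together. Intervals and libraries of single mice carry no spread between mice. For the share beside Cyp2e1, Notch3-/- mouse 3, with 22.7% (11.5 to 37.8), lay below the interval of mouse 2, and its interval included that of mouse 1, while control mouse 2, with 25.0% (12.1 to 42.2), had an interval that overlapped both.

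Other zonation genes outside P450 families 1 to 4 were listed for comparison, of which Ahr, Nr1i3 and Cyp7a1 also stand on other lists used here. Of 9 pericentral genes 7, 8 and 1 exceeded all 4 controls in Notch3-/- mice 1, 2 and 3, and of 9 periportal genes 9, 9 and 3 did. The pericentral sum was 791, 912, 802 and 839 CPM in the controls against 1126, 1555 and 744 CPM in Notch3-/- mice, and was mostly Oat and Glul, which heart muscle also expresses. For the periportal genes the sum was 71.8, 92.7, 66.3 and 84.2 CPM against 902, 2319 and 114 CPM. Of 6 pericentral genes tested, 3 (Slc1a2, Rgn and Ahr) had an unadjusted p lower than 0.05 with a higher level. Glul had one with a lower level, and all 5 periportal genes tested had one with a higher level. Over all genes tested, 7.34% were higher at that p and 3.05% were lower. At least 10 counts in 3 or more control mice were found for 4 of the 6 and 2 of the 5. Slc1a2, Rgn and the rest of the periportal genes fell short of this, so their direction is not independent of the filter. EdgeR with Benjamini-Hochberg adjustment called 0 of the 11 tested. DESeq2 called 3 of the 9 pericentral and 8 of the 9 periportal genes, beside 3.53% of all genes.

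The P450 genes that differ between male and female mouse liver divided Notch3-/- mice 1 and 2. The 9 female-biased members, steroid and drug hydroxylases such as Cyp2b9 and Cyp3a44, had 4, 0, 2 and 0 summed counts in the controls against 1321, 33 and 1 in Notch3-/- mice. The 3 male-biased members, the testosterone hydroxylase Cyp2d9 and the arachidonic acid hydroxylases Cyp4a12a and Cyp4a12b, had 0, 6, 0 and 0 in the controls against 13, 1541 and 6 in Notch3-/- mice. Notch3-/- mouse 1 was high in the female-biased and mouse 2 in the male-biased members, and 0 of these 12 genes passed edgeR's expression filter, so none was tested there. The female-biased share of these counts was 99.0% in Notch3-/- mouse 1 (95% Clopper-Pearson interval 98.3 to 99.5) and 2.10% in mouse 2 (1.45 to 2.93). Its libraries gave 99.4%, 99.9% and 96.7% in mouse 1 and 1.94%, 1.87% and 2.54% in mouse 2. Notch3-/- mouse 3 had 14.3% (0.361 to 57.9) of 7 counts, and control mouse 2 had 0% (0 to 45.9) of 6.

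**Figure D3:**
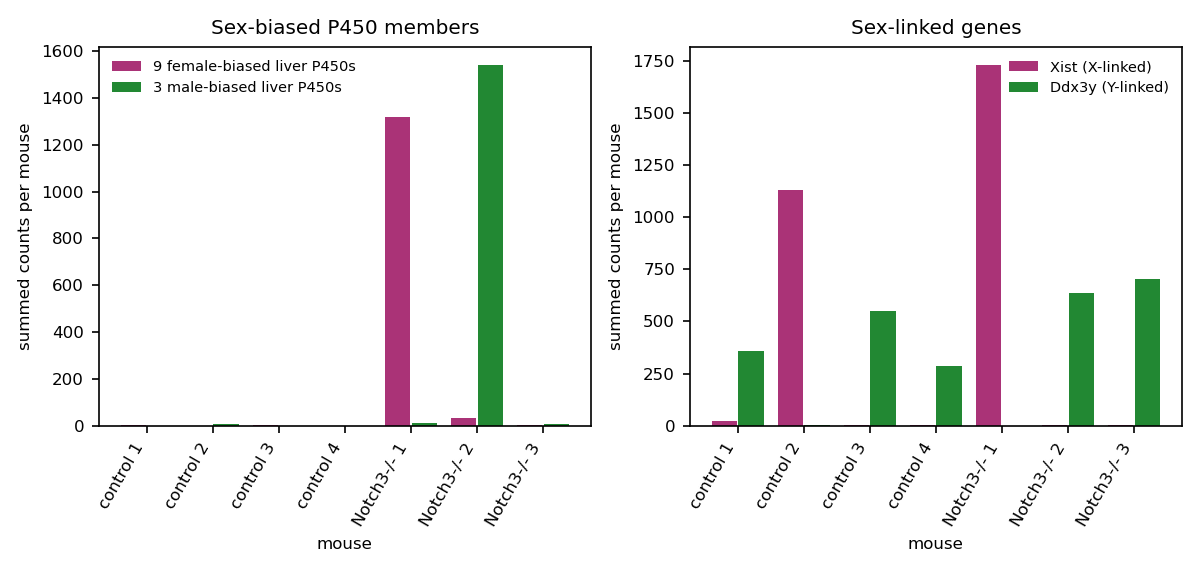
Summed counts per mouse of 9 female-biased and 3 male-biased liver P450s on the left, and counts of the sex-linked genes Xist and Ddx3y on the right, each bar starting at 0. Notch3-/- mouse 1 has 1321 female-biased P450 counts and 1729 Xist counts, and Notch3-/- mouse 2 has 1541 male-biased P450 counts and 636 Ddx3y counts.

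The paired bars set these members beside the sex-linked genes. Xist, the RNA that silences an X chromosome in females, had 25, 1128, 2 and 3 counts in the controls against 1729, 5 and 3 in Notch3-/- mice. Ddx3y, on the Y chromosome, had 358, 4, 552 and 288 counts in the controls against 1, 636 and 705 in Notch3-/- mice. High Xist and near-absent Ddx3y were thus found in control mouse 2 and Notch3-/- mouse 1. Notch3-/- mouse 1, with female-biased P450s, had Xist, and mouse 2, with male-biased P450s, had Ddx3y. The few counts of control mice lay the other way. Control mouse 2, with Xist, had 6 male-biased and 0 female-biased counts, and control mice 1 and 3, with Ddx3y, had 4 and 2 female-biased and 0 male-biased counts, a female-biased share of 100% with 95% Clopper-Pearson intervals from 39.8 and 15.8 to 100. Summed over the 5 sex-linked genes listed, the level was 318, 247, 334 and 287 CPM in the controls against 480, 325 and 348 CPM in Notch3-/- mice, and 0 of the 5 had an unadjusted p lower than 0.05 between genotypes. These 3 Notch3-/- mice are few, and sex here is read from counts, not from labels.

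Single genes of the female-biased list showed how sharp the division was. Cyp2b9 had 2, 0, 0 and 0 counts in the controls against 359, 8 and 0 in Notch3-/- mice. Cyp3a44 had 0 in all control mice and 268, 1 and 0 in Notch3-/- mice, at least 98.3-fold higher pooled over mice, a bound that cannot be given without Notch3-/- mouse 1. Cyp2c69 had 0 against 207, 4 and 0, at least 77.1-fold higher and 2.00-fold without mouse 1. Both bounds rest on that mouse. The steroid hydroxylase Cyp2a4 had 1, 0, 0 and 0 against 265, 9 and 1 counts, and Cyp2b13 had 0, 0, 2 and 0 against 89, 0 and 0. Cyp3a16 had 0 against 50, 2 and 0, and Cyp2c40 had 0 against 37, 9 and 0. Cyp3a41a had 1, 0, 0 and 0 against 13, 0 and 0, and Cyp3a41b had 0 against 33, 0 and 0. All 9 were thus highest in Notch3-/- mouse 1.

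In the male-biased list, Cyp2d9 had 0, 4, 0 and 0 counts in the controls against 12, 978 and 4 in Notch3-/- mice, Cyp4a12a had 0, 2, 0 and 0 against 1, 408 and 2, and Cyp4a12b had 0 against 0, 155 and 0. All 3 were highest in Notch3-/- mouse 2. Cyp2c39, which is not on either list, had 2, 0, 0 and 0 against 231, 6 and 0 counts and so sat with the female-biased members. Several of these genes and of other hepatic members are near copies. Of the stretches of 51 bases in a gene's exons, 98.5% in Cyp3a41a, 93.4% in Cyp3a41b, 59.7% in Cyp2c40, 53.8% in Cyp2c69, 52.1% in Cyp2c67, 48.9% in Cyp4a12b, 48.4% in Cyp4a12a, 42.9% in Cyp4a32, 42.5% in Cyp2c68 and 37.9% in Cyp2a4 also occur in another gene. How reads shared by such copies were counted is not given in the sources used here, so the split within these groups is uncertain, and with it the ratios and bounds of these genes.

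**Figure D4:**
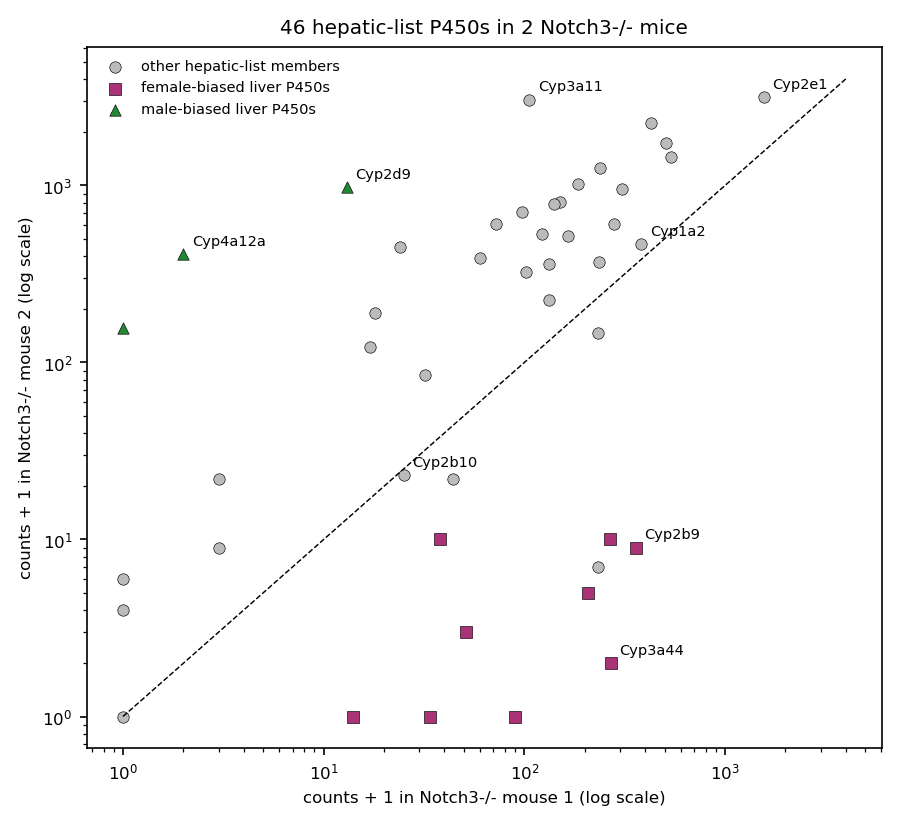
Counts + 1 of the 46 hepatic members in Notch3-/- mouse 1 (x axis) and mouse 2 (y axis), both on log scales, with the dashed line marking equal counts. The 3 male-biased members lie far above the line and the 9 female-biased members below it, while most others lie above it.

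Beyond the sex-biased genes, the scatter of the 46 hepatic members shows most of the others higher in Notch3-/- mouse 2 than in mouse 1. Among 29 hepatic members other than Cyp2b10 and the sex-biased genes, with at least 10 counts in either mouse, 25 had a higher CPM in mouse 2 and 4 a lower one. The median ratio of mouse 2 to mouse 1 was 2.63, with a range from 0.0200 (Cyp2c39) to 22.3 (Cyp3a11); this selection was made after the values were seen. For the 20 hepatocyte markers the median ratio was 2.13 and the range 1.10 to 4.84. Cyp3a11 and Cyp2c67, with 15.1, lay furthest above the range of the hepatocyte markers, and Cyp2d40, Cyp4a32, Cyp2c23, Cyp2c54, Cyp4a14 and Cyp4f15 lay above it too. Cyp2c39, Cyp2a22, Cyp2c37 (0.483) and Cyp1a2 (0.935) lay below it. These ratios compare 2 mice and have no replicate behind them.

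Fatty acid enzymes of the liver gave further examples. Cyp2j5, an arachidonic acid epoxygenase of liver and kidney, had 1, 5, 0 and 0 counts in the controls against 238, 1249 and 1 in Notch3-/- mice. Cyp2c23, an epoxygenase of the same acid, had 0, 1, 0 and 0 against 71, 607 and 3. Cyp4f14, a leukotriene hydroxylase, had 2, 11, 4 and 3 against 140, 789 and 3. Each was high in Notch3-/- mice 1 and 2, with mouse 3 at or near the control level. Cyp4f15 had 10, 3, 3 and 1 against 59, 387 and 2 counts, a log2 change of 4.78 (SE 1.27, Benjamini-Hochberg adjusted p of 0.207 in edgeR) that was -1.57 with Notch3-/- mouse 3 alone against the control mice. Cyp4a31 had 0, 2, 0 and 0 against 2, 8 and 0, and Cyp4a32 had 0, 1, 0 and 0 against 2, 21 and 0.

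Among drug and bile acid enzymes of families 2 and 3, Cyp2d26 had 1, 8, 0 and 0 counts in the controls against 535, 1455 and 9 in Notch3-/- mice, and Cyp2d10 had 2, 3, 0 and 0 against 184, 1019 and 4. Cyp2c70, which makes the muricholic bile acids of mice, had 0, 4, 0 and 0 against 280, 608 and 3. Notch3-/- mouse 3 did not exceed control mouse 2 in raw counts of Cyp2c70, and exceeded it by 1 count for Cyp2d26 and for Cyp2d10. Cyp2a12, a testosterone hydroxylase, had 0, 2, 0 and 1 against 304, 948 and 3, and its ratio of pooled rates was 459 (95% counting interval 157 to 2228), and 172 (58.3 to 838) without mouse 2. Cyp2a5, the coumarin hydroxylase, had 0, 2, 0 and 0 against 234, 367 and 0, with a ratio of 330 (90.8 to 2727), and 196 (53.8 to 1632) without mouse 2. Its exons share 36.2% of their 51-base stretches with other genes. Cyp3a13, which is also made in the intestine, had 16, 18, 9 and 7 against 164, 517 and 18, the highest control total of a hepatic member after Cyp2b10. Its Notch3-/- mouse 3 lay within the control range, and the log2 change was 3.95 (SE 0.88, Benjamini-Hochberg adjusted p of 0.158 in edgeR).

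For 20 members no control count was found in any of the 4 control mice while a Notch3-/- mouse had at least 1. In 16 of them the Notch3-/- counts exceeded a floor of 3 counts over the control group, and the fold of the pooled rates is given as a bound against that floor, from 1.46-fold to 351-fold. Cyp3a25, from the same subfamily as Cyp3a11, had 149, 809 and 1 counts in Notch3-/- mice and was at least 351-fold higher, or 84.0-fold without Notch3-/- mouse 2. Cyp2c50 was at least 238-fold higher and 68.9-fold without mouse 2, Cyp2c68, with 101, 324 and 2 counts, at least 156-fold and 57.7-fold, and Cyp2c38, with 132, 224 and 1, at least 131-fold and 74.5-fold. These 4 bounds stayed above 50 without the highest mouse. Cyp2c54 was at least 50.4-fold higher and 8.96-fold without mouse 2, Cyp4a12b at least 56.7-fold with no count left without it, and Cyp3a59, with 31, 84 and 0 counts, at least 42.0-fold and 17.4-fold. Cyp2a22, with 43, 21 and 0 counts, was at least 23.4-fold higher, and 10.5-fold without mouse 1. A further 18 members had 1 to 3 control counts. Among them Cyp2c23 had a ratio of pooled rates of 747 (95% counting interval 134 to 29542), and 124 (21.6 to 4974) without Notch3-/- mouse 2. Cyp2d40, with 17, 189 and 1 Notch3-/- counts, had a ratio of 227 (40.3 to 9009), and 30.2 (4.77 to 1260) without mouse 2. Cyp2c37 had 413 (73.8 to 16373), and 218 (38.6 to 8687) without mouse 1, and Cyp2b9 had 201 (55.3 to 1668), and 5.99 (1.19 to 57.9) without mouse 1. Ratios without the highest Notch3-/- mouse were added after the values were seen. The control counts of each of these 4 came from 1 control mouse, mouse 2 for Cyp2c23 and mouse 1 for the others. All intervals and bounds of pooled rates use counts pooled over mice, so they leave out the spread between mice. Every interval covers counting error only. It may be too narrow even for that, since the libraries were amplified by PCR without molecular identifiers.

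The test across all genes gave the following counts. The expression filter of edgeR kept 14324 genes, of which 1 was called at an FDR lower than 0.05 and a fold of at least 1.5 (0.00698%), Notch3, and edgeR with Benjamini-Hochberg adjustment called 0 of the 19 members tested. Among these, 6 had an unadjusted p lower than 0.05 and were higher, where 1051 genes (7.34%) were, and 0 were lower, where 437 genes (3.05%) were. The 6 are Cyp2e1, Cyp3a11, Cyp3a13, Cyp4f15, Cyp4v3 and Cyp2j6. In limma on the 7 mice 1 of the 19 members was higher at an unadjusted p lower than 0.05, where 663 genes were. Only 5 of the 46 hepatic members passed the filter, against 14 of the 15 vascular and cardiac members. Cyp2e1, Cyp3a11, Cyp3a13 and Cyp4f15 had low control counts and passed through their Notch3-/- counts, so their direction is not independent of the filter.

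Among other fits, DESeq2 called 601 of 17013 genes that received an adjusted p (3.53%), and 23 members, which are 22 hepatic members and Cyp4v3, all higher. An adjusted p was given to 46 members. Some of those called, Cyp3a25, Cyp2c50, Cyp2c68 and Cyp2c38, were at 0 in the controls, so their direction could only be higher. With shrunken folds, a setting added after the unshrunken result was seen, DESeq2 called 520 of 17571 (2.96%) and 22 members, without Cyp4f15. EdgeR on every gene with at least 1 count called 639 of 28790 (2.22%) and 35 of 71 members, namely 33 hepatic members, Cyp4v3 and Cyp2c55. Several of these 35, Cyp2c55, Cyp2c54 and Cyp2c69 among them, were at 0 in the controls. They entered this fit through their Notch3-/- counts alone, so their direction could only be higher. Without Notch3-/- mouse 3, edgeR called 936 of 15008 genes (6.24%) and 29 of 43 members, 28 hepatic ones and Cyp4v3. In that fit 29 hepatic members were tested in place of 5, among them members at 0 in the controls that passed the filter through their Notch3-/- counts, so these calls are not independent of the filter either. Cyp2e1 had an FDR of 7.8e-05 in DESeq2 and 8.4e-06 in edgeR without Notch3-/- mouse 3, both with Benjamini-Hochberg adjustment. Notch3-/- mouse 3 alone against the control mice has no spread within its group, so only fold changes are given for it.

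The hepatic and heart-counted groups compare as follows. With members at 0 in control mice placed at their bound, the median log2 ratio of pooled rates was 7.02 over 45 hepatic members, 0.81 over the 15 vascular and cardiac members and 0.58 over the 10 heart-counted members, and Cyp2b10 counts among the hepatic and the heart-counted members. The median fitted log2 change was 0.56 over the 10 heart-counted members and 0.78 over the 14 tested members of the vascular and cardiac list, beside -0.003 over all genes tested. For the 5 hepatic members tested it was 4.78, a value that does not stand for the list, since 4 of them passed the filter through their Notch3-/- counts. Of the 14 vascular and cardiac members, 10 had at least 10 counts in 3 or more control mice. Cyp2r1, Cyp2s1, Cyp4f18 and Cyp4x1 did not, so their direction is not independent of the filter. With Notch3-/- mouse 3 alone against the control mice, the medians over the members tested were 0.86 for hepatic and 0.04 for heart-counted members. Above every control mouse in CPM were 40, 41 and 11 of the 46 hepatic members in Notch3-/- mice 1, 2 and 3, against 5, 5 and 2 of the 10 heart-counted members. Of the 12546 genes with at least 10 counts in every control mouse, 23%, 28% and 20% exceeded all 4 controls in Notch3-/- mice 1, 2 and 3, and of the 16244 other genes with a count, 20.1%, 24.4% and 15.6% did.

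**Figure D5:**
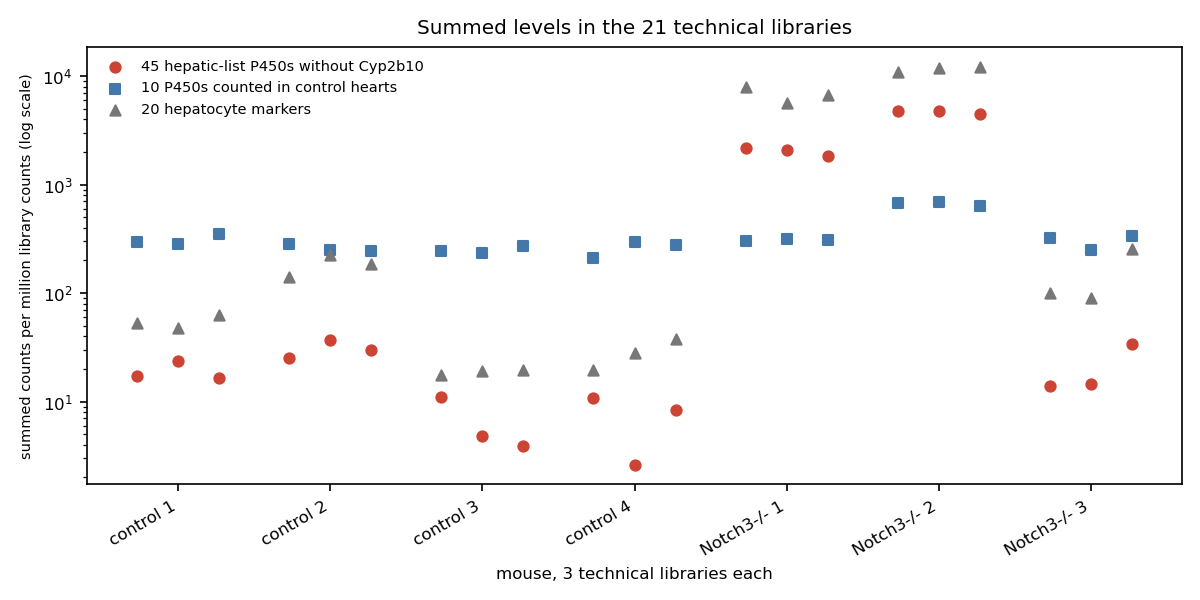
Summed counts scaled to the library total as CPM without TMM factors, on a log scale, in each of the 21 technical libraries, for 45 hepatic members without Cyp2b10 (red circles), 10 heart-counted members (blue squares) and 20 hepatocyte markers (grey triangles). The hepatic sums of the 6 libraries of Notch3-/- mice 1 and 2 lie between 1842 and 4807, and those of Notch3-/- mouse 3 are 13.9, 14.6 and 34.2.

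The plot of the 21 libraries shows the red and grey points far higher in all libraries of Notch3-/- mice 1 and 2 than in those of other mice. At low levels the libraries of a mouse spread widely, with hepatic sums of 10.8, 2.63 and 8.32 CPM in control mouse 4 and hepatocyte marker sums of 99.8, 89.8 and 257 CPM in Notch3-/- mouse 3, while the blue squares stay in a narrow band apart from Notch3-/- mouse 2. Per 100 counts of the hepatocyte markers, the 45 hepatic members other than Cyp2b10 had 35.9, 16.8, 32.5 and 21.1 counts in the controls against 31.4, 40.1 and 13.8 in Notch3-/- mice. This ratio overlapped between the groups. The 10 heart-counted members summed to 312, 258, 250 and 279 CPM in the controls against 325, 723 and 297 CPM in Notch3-/- mice, and 35.5% of the counts in Notch3-/- mouse 2 came from Cyp4v3. In Notch3-/- mouse 3 the 5 members with the highest CPM were Cyp2u1, Cyp4b1, Cyp2b10, Cyp2d22 and Cyp2j6, all heart-counted.

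Markers of other tissues were examined in the same mice. The 5 Kupffer cell markers, of the macrophages of the liver, summed to 7.57, 5.69, 7.29 and 8.68 CPM in the controls against 56.6, 76.6 and 13.99 CPM in Notch3-/- mice. Clec4f was the highest in mean CPM over all mice. Vsig4 or Cd5l was the highest in each mouse but Notch3-/- mouse 1, with Vsig4 and Timd4 level in control mouse 2. All 3 Kupffer cell markers tested, Vsig4, Timd4 and Cd5l, had an unadjusted p lower than 0.05 and were higher, beside 7.34% of all genes tested. Of these, 1 (Vsig4) had at least 10 counts in 3 or more control mice. For Timd4 and Cd5l the direction is not independent of the filter. EdgeR with Benjamini-Hochberg adjustment called 0 and DESeq2 called 1, beside 3.53% of all genes. Kidney tubule markers summed to 0.659, 3.16, 3.53 and 3.67 CPM against 0.547, 2.94 and 2.27 CPM, with Slc34a1, Umod and Slc22a6 at 0 in all mice, and lung markers to 0.659, 6.95, 0 and 1.00 CPM against 5.19, 2.52 and 0.378 CPM, with Scgb3a2 and Sftpd at 0. Neither list was higher in the 2 mice with many hepatic P450 counts beyond the control range. Intestinal markers summed to 181, 186, 103 and 130 CPM against 157, 472 and 158 CPM, of which Apoa4, also made in liver, had 263, 1663 and 4 counts in Notch3-/- mice, and Fabp2 had 13, 221 and 0 against 0, 1, 0 and 0 in the controls, while Cdx1 and Cdx2 had at most 1 count in any mouse. Of these 3 lists 1 kidney and 1 intestinal gene were tested. At an unadjusted p lower than 0.05 there were 0, and edgeR with Benjamini-Hochberg adjustment called 0. DESeq2 called 1 intestinal gene, beside 3.53% of all genes. On every gene with at least 1 count edgeR called 2 intestinal genes, beside 2.22% of all genes. Without Notch3-/- mouse 3 it called 2, beside 6.24%. Adipocyte markers summed to 0.659, 1.48, 0 and 11.0 CPM against 5.47, 20.8 and 0 CPM, with Cidec at 90 of the 99 counts in Notch3-/- mouse 2, and the part of these lists in the P450 values was not tested.

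Cells of the heart itself were measured in the same way. The 10 cardiomyocyte markers, led by Ttn, summed to 29686, 21428, 25023 and 28617 CPM in the controls against 29482, 19533 and 21003 CPM in Notch3-/- mice and so marked every mouse. Endothelial markers summed to 1219, 1049, 1208 and 1470 CPM against 1308, 1421 and 1343 CPM, smooth muscle and pericyte markers to 1457, 1311, 1238 and 1307 CPM against 1355, 961 and 1094 CPM, and fibroblast markers to 1263, 1089, 1063 and 1058 CPM against 1182, 1248 and 1484 CPM. Macrophage markers summed to 438, 380, 453 and 434 CPM against 470, 434 and 505 CPM, and blood markers to 468, 353, 351 and 536 CPM against 303, 475 and 206 CPM. With an unadjusted p lower than 0.05 there were 0 of 10 cardiomyocyte and 0 of 8 endothelial markers, 3 of 7 smooth muscle and pericyte markers (all lower), 3 of 6 fibroblast markers (2 higher, 1 lower), 1 of 6 macrophage markers (higher) and 2 of 5 blood markers (lower), beside 7.34% of all genes tested that were higher and 3.05% that were lower. EdgeR with Benjamini-Hochberg adjustment called 0 of them, and DESeq2 called 1 smooth muscle and pericyte and 2 fibroblast markers, beside 3.53% of all genes. None of these sums set Notch3-/- mice 1 and 2 apart from the other mice as the hepatic members did.

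The proteins that serve P450 enzymes were listed too. Por, the reductase that passes electrons to all members, had 367, 799, 492 and 410 counts in the controls against 502, 1139 and 752 in Notch3-/- mice, with a log2 change of 0.35 (Benjamini-Hochberg adjusted p of 0.605 in edgeR). Of 10 partners tested 4 had an unadjusted p lower than 0.05, all higher, beside 7.34% of all genes tested, and edgeR with Benjamini-Hochberg adjustment called 0 and DESeq2 called 1, beside 3.53% of all genes. These 4 are Pgrmc1, a haem-binding partner with 156, 291, 172 and 111 against 712, 2266 and 237 counts, and Cyb5a, Cyb5b and Cyb5r3 of the cytochrome b5 system, with log2 changes of 0.71, 0.89 and 0.63. Pgrmc1, with a log2 change of 2.32, Cyb5a and Cyb5r3 had Notch3-/- mice 1 and 2 above the control mice, as the hepatic members did, while mouse 3 lay within the control range for Pgrmc1 and Cyb5r3 and below it for Cyb5a. For Cyb5b all 3 lay above it, at 237, 375 and 179 CPM against 126 to 161 CPM.

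Transcription factors that control P450 genes showed both patterns. Hnf4a, the hepatocyte factor whose site is spelled in the windows above, had 0, 1, 0 and 0 counts in the controls against 130, 693 and 2 in Notch3-/- mice, and Nr1i2, the drug receptor PXR, had 0 against 18, 108 and 0. Nr1i3, the receptor CAR, had 380, 597, 561 and 412 against 604, 703 and 718, but 74.9% of its exon bases overlap Tomm40l on the opposite strand, so its counts are uncertain. Of 15 regulators 11 were tested, and 4 had an unadjusted p lower than 0.05 with a higher level, Ahr, Rxra, Cebpa and Nr1h3, with log2 changes of 0.77, 0.57, 3.05 and 0.74, beside 7.34% of all genes tested. In all 4 Notch3-/- mice 1 and 2 lay above the control mice and mouse 3 within their range. Of the 11 regulators tested, 10 had at least 10 counts in 3 or more control mice. The exception was Cebpa, with 3, 14, 6 and 5 counts in the controls against 52, 141 and 10 in Notch3-/- mice. Its direction is therefore not independent of the filter. EdgeR with Benjamini-Hochberg adjustment called 0 of the 11 regulators and DESeq2 called 4 of the 15, beside 3.53% of all genes.

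P450 genes outside families 1 to 4 were 21 in the table, of which 7 were tested. EdgeR with Benjamini-Hochberg adjustment called 0 and DESeq2 called 3, beside 3.53% of all genes. Of the 7, 2 had an unadjusted p lower than 0.05 and were higher, beside 7.34% of all genes tested. The 2 are Cyp27a1, of bile acid synthesis, with a log2 change of 0.98, and Cyp51, of cholesterol synthesis, with 1.42. Both were above the control mice in Notch3-/- mice 1 and 2, while mouse 3 lay just below the control range for Cyp27a1 and within it for Cyp51. Cyp7a1, the first enzyme of bile acid synthesis, had 0, 2, 1 and 0 counts against 47, 236 and 0, Cyp8b1 had 0, 9, 2 and 0 against 168, 1506 and 10, and Cyp17a1, of steroid synthesis, had 2, 1, 0 and 0 against 167, 251 and 1; these 3 were named after their values were seen. They were high in the same 2 mice as the hepatic members of families 1 to 4. Other enzymes of the arachidonic acid pathways numbered 11, of which 10 were tested. At an unadjusted p lower than 0.05, 0 were higher, beside 7.34% of all genes tested, and 1 was lower, beside 3.05%. The lower gene was the prostaglandin D synthase Ptgds, with a log2 change of -0.61. The 11 enzymes summed to 904, 1024, 911 and 970 CPM in the controls against 811, 853 and 915 CPM in Notch3-/- mice. This sum was led by the epoxide hydrolase Ephx2 in each mouse but control mouse 2, where Ptgds led. Both edgeR with Benjamini-Hochberg adjustment and DESeq2 called 0, beside 3.53% of all genes in DESeq2.

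By family, family 1 summed to 22.7, 14.1, 14.8 and 8.35 CPM in the controls against 110, 124 and 15.3 CPM in Notch3-/- mice. Family 2 summed to 165, 161, 167 and 177 against 1907, 3817 and 207 CPM, family 3 to 5.598, 7.38, 2.12 and 2.34 against 222, 938 and 5.48 CPM, and family 4 to 154, 114, 84.5 and 118 against 255, 982 and 117 CPM. In all 4 families Notch3-/- mice 1 and 2 lay above every control mouse. Notch3-/- mouse 3 lay above every control mouse in family 2, to which Cyp2b10 contributed 237 of 1096 counts, and within the control range in families 1, 3 and 4. The members with the most counts in control mice were Cyp1b1 in family 1, Cyp2u1 in family 2, Cyp3a13 in family 3 and Cyp4b1 in family 4, while in Notch3-/- mouse 2 they were Cyp1a2, Cyp2e1, Cyp3a11 and Cyp4v3.

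The members lie in clusters on few chromosomes, with 18 on chromosome 4, 15 each on chromosomes 7 and 19, 10 on chromosome 5, 9 on chromosome 17 and 8 on chromosome 15. Another 2 each lie on chromosomes 8 and 9, and Cyp2u1 alone lies on chromosome 3. On chromosome 19 all 15 members are of subfamily 2C, and the 13 with a count exceeded all 4 controls in CPM in both Notch3-/- mouse 1 and mouse 2, with at most 3 counts in Notch3-/- mouse 3 and at most 7 in a control mouse. Pairs chosen after their values were seen differed within a chromosome. On chromosome 4, Cyp4b1 had 216 to 370 counts in Notch3-/- mice while Cyp4a14 had 3 to 705, and on chromosome 17, which also carries Notch3, Cyp4f16 had 34 to 63 while Cyp4f15 had 2 to 387. Of the 19 members on neither list, Cyp2c55 had the most counts, with 0 counts in the controls against 7, 57 and 1 in Notch3-/- mice, at least 23.8-fold higher and 4.48-fold without mouse 2. Cyp2t4 had 2, 5, 2 and 1 counts against 1, 5 and 7, and the other members on neither list had at most 4 counts in any mouse.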

How the data were processed

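The authors deposited raw counts, whole numbers of reads per Ensembl gene for each technical library, and no aligner, counting program or strand setting is given in the sources used here. The 92 lines for ERCC spike-ins, with 34 counts in all, were left out, and counts were summed over the 3 technical libraries of each mouse. Symbols, coordinates and exon lengths came from GENCODE vM21 (GRCm38), where 46005 identifiers were found and 512 were not. Differential expression was computed in R 4.3.3 with edgeR 4.0.16 (filterByExpr, TMM, quasi-likelihood F-test, genotype as the only term), with calls at an FDR (Benjamini-Hochberg) below 0.05 together with a 1.5-fold change or more. DESeq2 1.42.0, limma 3.58.1, other size factors and filters, fits leaving out each mouse, on k-labelled mice and on each technical library alone were alternatives, and DESeq2 with folds shrunken by ashr 2.2.63 was added after the unshrunken result was seen. The steps were tested on simulated data. The tables and plots used Python 3.11.15 with pandas 2.3.3, scipy 1.17.1 and matplotlib 3.10.9. Exact intervals are at the 95% level. Ratios of pooled rates use summed counts over TMM-scaled totals. The floor of 3 counts over the control group is a fixed number, turned into a rate by the TMM-scaled totals of the control mice. The totals per mouse are given in the report.

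The members and the gene lists were chosen with earlier results of these data known. The lists are hepatic, vascular and cardiac, pericentral, periportal, female-biased and male-biased P450s, P450 partners, regulators and other families, arachidonic acid enzymes, other zonation genes, sex-linked genes, and markers of hepatocytes, Kupffer cells, heart cells, blood, adipocytes, lung, kidney and intestine. The hepatic list named 47 genes, of which Cyp2d13 is not in the table. Genes named in the text are Notch3, members with at least 10 counts in every control mouse, the 12 members with the highest mean CPM, members with an unadjusted edgeR p lower than 0.05 or called by any fit, members of the zonation and sex-biased lists, the top 5 of Notch3-/- mouse 3, and listed genes with such a p or named as background. Other named genes were chosen after their values were seen, as were the promoter windows and motifs.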

Additional observations from a re-analysis of the deposited data

Results flagged for a closer look

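Within the control mice, 2 of 23 values compared held a mouse far from the others by Dixon's test of the gap to the nearest mouse. Cyp3a11 was at 3.58 CPM in control mouse 2 and at 0 in the other 3 control mice. Cyp4f15 was at 3.29 CPM in control mouse 1 and between 0.334 and 0.706 CPM in the other 3. With 3 mice at 0, any count in the other mouse passes this test, so it says nothing about Cyp3a11. For values without such ties, chance alone picks out about 1 in 20 groups in this way.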

How the results depend on the processing

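Of the alternative fits of the named members, 352 kept their direction and side of the threshold, 18 moved past it in the same direction and 18 changed sign. No member was called under RLE factors, TMM factors without hepatocyte markers and P450 members, or at least 10 counts in every mouse, where 1 gene was called as in the report. DESeq2 called 601 genes and 23 members, and every gene with at least 1 count gave 639 and 35. Leaving out each mouse in turn gave 1 to 936 genes and 0 to 29 members, the highest without Notch3-/- mouse 3. The mice labelled k gave 0 genes. Limma called 1 gene on the 7 mice. On the 21 libraries, with the mouse as a random effect, it called 65 of 11193 genes without and 62 with the technical replicate block. It called 0 of the 9 members tested either way. In each of these 2 fits 5 of the 9 were higher at an unadjusted limma p lower than 0.05. Over all genes tested, 923 were without the block and 913 with it. Libraries of a mouse are not independent replicates, so those p-values may be too small. The numbers 1 to 3 mark technical libraries, not paired mice. Technical libraries 1, 2 and 3 alone gave 48, 39 and 77 genes, with 1 member (Cyp2e1) in library 3. The median of hepatic members tested was 7.71 in DESeq2, 7.63 with every gene, 0.81 with at least 10 counts in every mouse, 2.81 to 8.50 leaving out each mouse, 9.94 in the mice labelled k, 0.36 and 0.31 on the 21 libraries without and with the replicate block, and 0.94 and 0.13 in libraries 1 and 2. Fewer members were tested in several of these, down to 1 (Cyp2b10). Limma on the 7 mice gave a hepatic median of 2.95 over 5 members. The median of heart-counted members was 0.17 to 0.62 leaving out each mouse. Notch3 had a log2 fold change of -3.29 in the mice labelled k (Benjamini-Hochberg adjusted p of 0.206 in edgeR). At least 3 counts in every control mouse left 17 members in place of 10. Cyp1b1 ran from -0.47 to 0.29 leaving out each mouse (0.20 without control mouse 1) and was 0.34 in the mice labelled k and 0.63 in library 2. Leaving out each mouse also gave -0.96 to 1.27 for Cyp2b10, -0.042 to 1.71 for Cyp2r1 and -0.20 to 0.19 for Cyp4x1. Cyp4b1 was at 0.13 in the mice labelled k and Cyp4f16 at -0.30 in library 3. Further settings were chosen after seeing the data. DESeq2 with shrunken folds called 520 genes and 22 members, with medians of 2.94 for hepatic and 0.036 for heart-counted members. Notch3-/- mouse 3 alone against the control mice gave medians of 0.86 and 0.037, and log2 fold changes of 0.073 for Cyp1b1, -0.32 for Cyp2d22, -0.030 for Cyp2u1, -2.33 for Cyp2r1 and -1.57 for Cyp4f15. The mice with over 100 Ddx3y counts gave 0 genes, -3.26 for Notch3 (Benjamini-Hochberg adjusted p of 0.0518 in edgeR) and 0.27 for Cyp1b1, and sex read from Ddx3y as a covariate gave 0 members. Without technical library 3 of Notch3-/- mouse 3, Cyp1b1 was at 0.089. The cause was not tested for any of these. Few counts leave wide limits, as for Cyp2d11, with a ratio of pooled rates of 1.65 (95% counting interval 0.188 to 19.7).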
